A study of Homo sapiens with 12 samples.

Results

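The departure from additivity of givinostat and sorafenib was measured in HDLM-2, a cell line grown from a human Hodgkin lymphoma, on 12 Illumina HumanHT-12 V3 bead arrays. For each gene it is the log2 change that sorafenib made in the presence of givinostat minus the log2 change that sorafenib made without it. A departure of 0 means that the change with both drugs equals the sum of the single-drug changes on the log2 scale. A value above 0 places the level with both drugs above that sum, and a value below 0 places it below. All 12 arrays of the series entered, and 10525 genes met the detection rule and carried 1 gene symbol. The 4 groups of 3 arrays, lettered A, B and C, held cells given 100 nM givinostat together with 5 µM sorafenib (the combination), 100 nM givinostat alone, 5 µM sorafenib alone, or neither drug (control). Exposure lasted 24 hours in every group. Nothing in the labels tells whether arrays of 1 group were separate cultures. The p-values thus reflect array-to-array spread alone, which may be technical. The study used 1 cell line, and 3 arrays a group limit the precision.

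Givinostat inhibits histone deacetylases, the enzymes that take acetyl groups off histones and other proteins. Inhibitors of this class raise many silent or weakly expressed genes and lower others. Sorafenib inhibits RAF kinases and several receptor tyrosine kinases. RAF stands upstream of MEK and ERK, and active ERK drives immediate early genes such as FOS and EGR1 through transcription factors bound at their promoters. In several cell types sorafenib is also known to start the integrated stress response, a programme of amino acid synthesis and transport genes under the factor ATF4. A sum of log2 changes is the product of fold changes, so additivity here means that each drug multiplies a gene's level by the same factor with or without the other.

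Mean intensity per array ran from 1034 (sorafenib C) to 1630 (control B). Between 16382 (sorafenib C) and 17934 (combination A) probes lay above background. The array sorafenib C correlated least with the other arrays of its own group (0.987 on average, against 0.990 to 0.993 elsewhere). Genes that mark Hodgkin Reed-Sternberg cells, namely TNFRSF8 (CD30), FUT4, IRF4, CCL17, CD274, FSCN1, GATA3, ID2 and TRAF1, lay above background on all 12 arrays. The B cell receptor gene CD79B did so on 0 arrays and CD79A on 2, while the B cell marker MS4A1 (CD20) did so on 10. Reed-Sternberg cells are known to lack much of the B cell programme. The cause of these values in HDLM-2 was not tested. RNA was taken from whole cultures, in which fewer cells of a type and less RNA per cell cannot be told apart.

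Departures were mostly small. Only GPR15 and RRAD departed from additivity at an adjusted p under 0.05 (0.019% of the genes tested), 1 below and 1 above the sum. GPR15 was the only one of these to depart at least 2-fold. The third smallest adjusted p was 0.106, and 71 genes had an adjusted p under 0.2, of which 34 lay above and 37 below the sum. At an unadjusted p under 0.05 there were 1149 genes (10.9%), where 5% of the genes tested would be 526. Of these, 544 lay above the sum (5.17% of genes tested) and 605 below it (5.75%). Over all genes the departure had a median of -0.01 and its 5th and 95th percentiles were -0.45 and 0.48. The median standard error (SE) was 0.18. The 95% interval of the departure lay inside a 2-fold change in either direction for 9315 genes (88.5%), and inside a 1.5-fold change for 5335 (50.7%). For the rest, the interval did not exclude a departure of that size, so a missing call does not show that they were additive. Of these, GPR15 (interval -1.81 to -1.09) and RRAD (0.65 to 1.18) were called as departing.

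**Figure D1:**
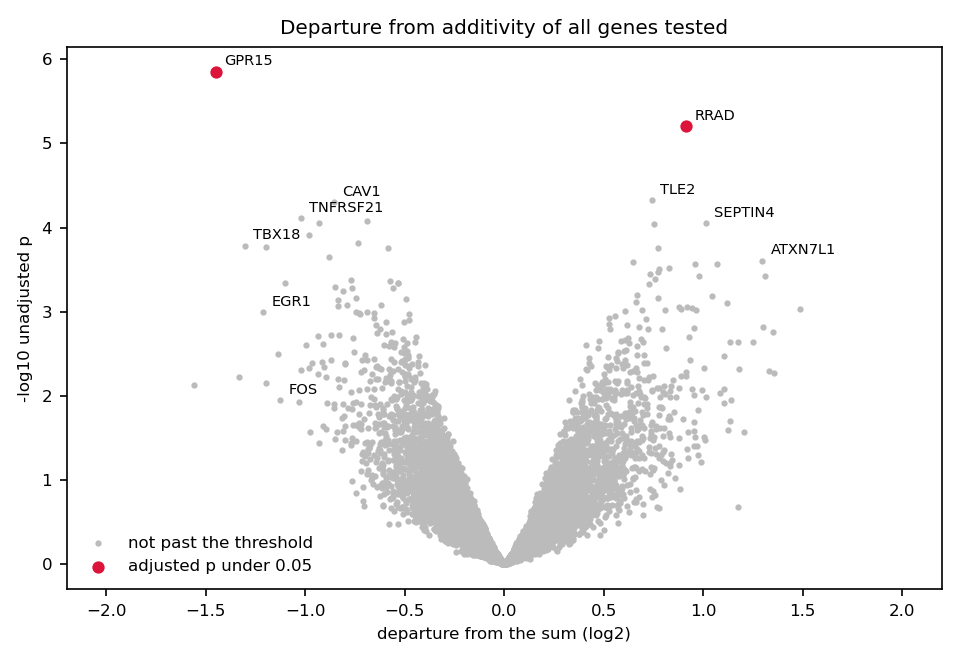
Departure from the sum of the single-drug changes (x axis, log2) against the -log10 unadjusted p of limma's moderated test (y axis) for all 10525 genes tested. GPR15 at -1.45 and RRAD at 0.92, in red, stand apart from the grey cloud, most of which lies between -0.45 and 0.48.

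The single contrasts gave many more calls. The combination changed 4353 genes against control (41.4%), givinostat changed 3507 (33.3%) and sorafenib changed 483 (4.59%). Set against each drug alone, the combination changed 141 genes relative to givinostat (1.34%) and 3719 relative to sorafenib (35.3%). Sorafenib therefore had 141 called genes on top of givinostat and 483 without it. These 2 counts come from separate thresholds. The test of the difference between the 2 sorafenib changes is the departure itself, and it called 2 genes. The 2 counts also moved with single arrays, to between 32 and 225 with givinostat and between 166 and 407 without it when 1 array was left out. The first count moved by over 1.5 times without any 1 combination or givinostat array or sorafenib C, and was lowest (32) without givinostat A. The second did so without any 1 control array, sorafenib B or sorafenib C, and was lowest (166) without sorafenib B.

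The sign of small departures depended on how the arrays were scaled. Quantile normalization gave a median departure over all genes of -0.01. Scaling each array to a common median in its place gave 0.19. At an unadjusted p under 0.05 the split was then 1332 genes above and 96 below (93.3% above), or 12.7% and 0.912% of the genes tested, against 544 above and 605 below (47.3% above) with quantile normalization. Medians of gene groups are therefore given below relative to the all-gene median of the same scaling.

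GPR15, a G protein-coupled receptor known for guiding T cells to the gut, had the departure with the smallest p. Its log2 intensity was 6.06, 5.94 and 5.74 with the combination, 7.95, 7.93 and 7.87 with givinostat, 5.32, 5.44 and 5.56 with sorafenib, and 5.81, 5.97 and 6.19 in control. The givinostat arrays stood alone above all others, and GPR15 was above background on those 3 arrays and on 0 of 3 arrays in each other group. Givinostat alone raised it at least 3.20-fold over control (adjusted p = 4.07e-07). With both drugs it was at least 3.44-fold lower than with givinostat alone (adjusted p = 8.59e-06). The sum of the single changes placed it at 7.37, and it was measured at 5.91 ± 0.16 (SD, n = 3). The departure was -1.45 ± 0.17 (SE; 95% interval -1.81 to -1.09; adjusted p = 0.0148, limma). GPR15 entered the test only through its givinostat arrays, the group where it was high. It was not tested among probes detected on all 12 arrays, and had an adjusted p of 0.0296 in the fit with no detection filter. Because 3 of the 4 groups lay at background, the size of this value depends on the background step. It was -0.59 ± 0.12 (adjusted p = 0.0504) without background correction and -1.78 ± 0.12 (adjusted p = 1.96e-05) with levels raised to the background limit. With an intensity-dependent prior the call was lost (-1.45 ± 0.31, adjusted p = 0.0679), as with the replicate block (adjusted p = 0.094). The adjusted p stayed under 0.05 without combination A, sorafenib A, sorafenib B, control B or control C. It ran from 0.0549 to 0.083 when any of the other 7 arrays was left out, while the departure ran from -1.55 to -1.36 over all 12 omissions.

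RRAD, a small GTPase of the Ras superfamily that binds calcium channel subunits, fell with each drug alone and with both, and the combination did not pass the test against givinostat. Its log2 intensity was 10.28, 10.40 and 10.48 with the combination, 10.20, 10.19 and 10.25 with givinostat, 11.16, 11.31 and 11.15 with sorafenib, and 11.91, 11.95 and 11.98 in control. The combination and givinostat arrays lay just above 10 and the combination arrays were the higher of these, with sorafenib between them and control. RRAD was above background on all 12 arrays. The change against control was -1.56 with the combination, -1.73 with givinostat and -0.74 with sorafenib, and each of these passed the test (adjusted p = 1.59e-07, 1.71e-07 and 0.000824 in that order). The combination differed from givinostat by 0.17 (adjusted p = 0.323). Adding the single changes gives -2.47, so the departure was 0.92 ± 0.12 (95% interval 0.65 to 1.18; adjusted p = 0.033). A second RRAD probe had a smaller departure of 0.52 ± 0.20. RRAD's adjusted p stayed under 0.05 only without sorafenib B (0.0488), and ran from 0.052 to 0.176 without any other single array, with a departure of 0.87 to 0.97. The call was also lost with median scaling (adjusted p = 0.0823), no detection filter (0.0993), the mean of the probes (0.158) and the replicate block (0.094).

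**Figure D2:**
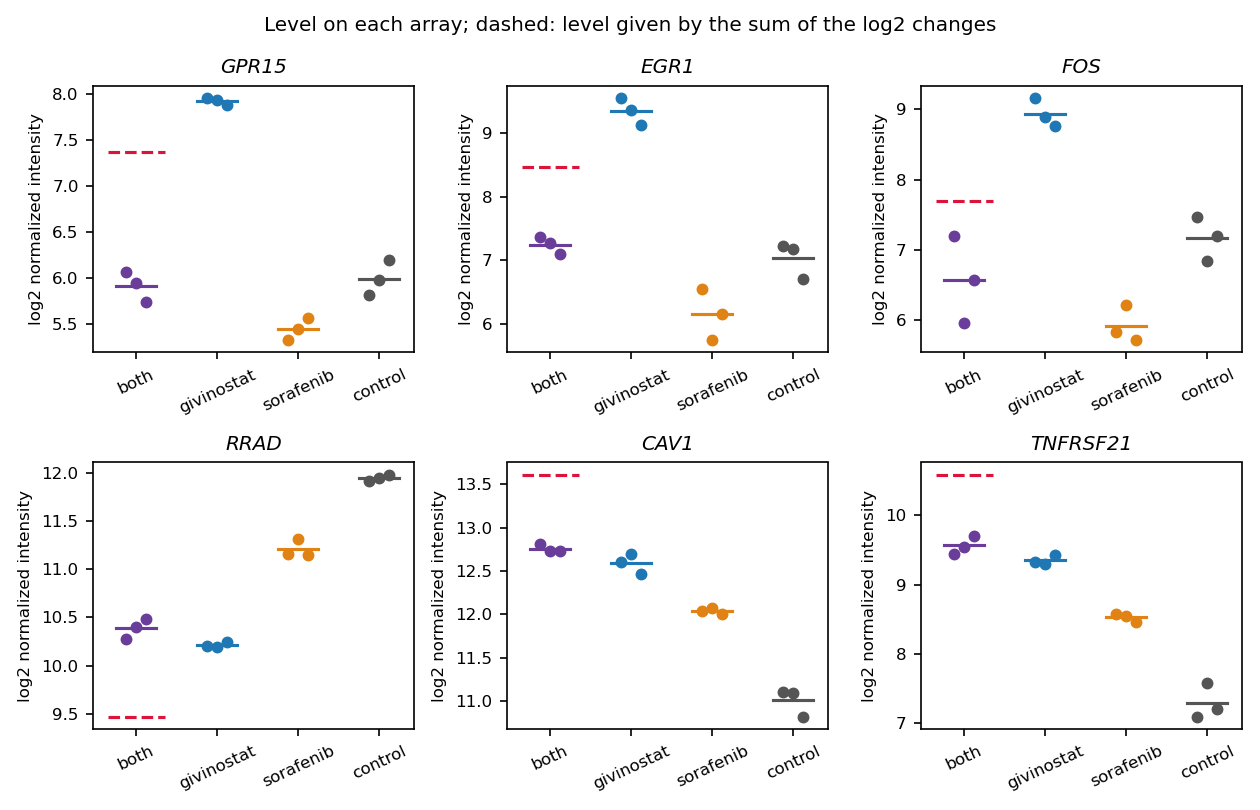
Log2 normalized intensity (y axis) on each of the 3 arrays of the combination ("both"), givinostat, sorafenib and control groups (x axis) for 6 genes, with a line at the group mean. The dashed red line is the level that the sum of the single-drug changes gives for the combination. It lies above the measured combination arrays for GPR15, EGR1, FOS, CAV1 and TNFRSF21, and below them for RRAD.

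EGR1 and FOS, the immediate early transcription factor genes downstream of ERK, were, like GPR15, highest with givinostat alone and lower with both drugs, with departures that did not pass the test. EGR1 had log2 intensities of 7.37, 7.27 and 7.10 with the combination, 9.54, 9.35 and 9.12 with givinostat, 6.56, 5.75 and 6.17 with sorafenib, and 7.22, 7.18 and 6.71 in control. The combination arrays lay well below the givinostat arrays and overlapped with control. EGR1 rose by 2.30 with givinostat (adjusted p = 7.06e-06) and fell by 0.88 with sorafenib (adjusted p = 0.032), where 1 of 3 arrays was above background. The combination minus givinostat difference was -2.09 (adjusted p = 0.000535). The departure of -1.21 ± 0.28 had an adjusted p of 0.174 (95% interval -1.83 to -0.60). With values not background-corrected, and with linear intensities in place of log2, EGR1 was among the called genes. On the linear scale its departure was -440 ± 49 intensity units (adjusted p = 4.31e-04).

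FOS, the partner of JUN in the factor AP-1, had 7.19, 5.95 and 6.57 with the combination, 9.16, 8.89 and 8.76 with givinostat, 5.83, 6.22 and 5.71 with sorafenib, and 7.46, 6.84 and 7.2 in control. The givinostat arrays were again the highest, while the combination arrays spread over more than 1 log2 unit and overlapped with both sorafenib and control. FOS rose by 1.77 with givinostat (adjusted p = 0.000374) and fell by 1.24 with sorafenib (adjusted p = 0.0261). It was above background on 2 of 3 combination and 1 of 3 sorafenib arrays, so the departure includes arrays at background. The combination minus givinostat difference was -2.37 (adjusted p = 0.0016). Its departure was -1.13 ± 0.38 (95% interval -1.95 to -0.31; adjusted p = 0.32). JUN showed another pattern. It measured 13.18, 13.39 and 13.50 with the combination, 12.87, 12.69 and 12.61 with givinostat, 12.75, 12.70 and 12.36 with sorafenib, and 11.82, 11.97 and 12.12 in control. JUN rose by 1.39 with the combination, by 0.76 with givinostat and by 0.64 with sorafenib. The departure was 0.00 ± 0.18 (95% interval -0.41 to 0.40). Under median scaling it was 0.17, or -0.02 relative to all genes.

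The 250 bases upstream of the start of these 3 genes (RefSeq, GRCh38.p14, plus strand, written 5′ to 3′) are shown because GPR15, EGR1 and FOS were high with givinostat and lower with both drugs. They were chosen after these values were seen. GPR15 lies at chr3:98531728-98531977, EGR1 at chr5:138465229-138465478 and FOS at chr14:75278578-75278827. Capitals mark the TATA box letters TATAAA, the GC box letters GGGCGG and the CArG box, the element that serum response factor binds.
GPR15: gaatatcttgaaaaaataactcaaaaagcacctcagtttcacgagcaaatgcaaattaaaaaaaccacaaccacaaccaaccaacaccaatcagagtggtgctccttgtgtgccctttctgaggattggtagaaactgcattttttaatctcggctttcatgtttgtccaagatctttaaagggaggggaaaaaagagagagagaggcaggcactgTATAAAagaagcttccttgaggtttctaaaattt
EGR1: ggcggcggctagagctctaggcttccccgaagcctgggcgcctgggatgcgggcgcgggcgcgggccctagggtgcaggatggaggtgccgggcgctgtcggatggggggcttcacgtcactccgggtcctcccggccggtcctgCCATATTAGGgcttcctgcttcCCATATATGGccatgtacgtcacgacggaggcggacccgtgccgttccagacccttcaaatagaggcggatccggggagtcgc
FOS: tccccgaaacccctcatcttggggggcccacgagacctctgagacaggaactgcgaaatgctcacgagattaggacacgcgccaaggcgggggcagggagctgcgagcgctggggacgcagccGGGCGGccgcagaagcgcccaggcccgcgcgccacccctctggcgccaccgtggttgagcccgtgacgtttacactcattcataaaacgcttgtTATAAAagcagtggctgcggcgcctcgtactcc

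Both strands were searched. TATAAA occurred once in GPR15, with its first base at -34 from the start, and once in FOS at -33, and 10.7% of the 35116 RefSeq promoter entries hold it in the same 250 bases. The CArG box occurred 2 times in EGR1 and in 1.16% of promoters. GGGCGG occurred 1 time in FOS and in 42.6% of promoters. TGACG, the core of the cyclic AMP response element, occurred 2 times in EGR1 and 1 time in FOS (21.2% of promoters), and CCAAT occurred 2 times in GPR15 (32% of promoters). The AP-1 letters TGANTCA were in none of these 3 windows (6.57% of promoters). None of the matches overlapped another. These are matches of letters and say nothing of binding in these cells.

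The other genes named below the sum were the next 11 by p, with adjusted p from 0.106 to 0.149, and are given as values. In 6 of them (CAV1, TNFRSF21, ITGB7, PLEKHB1, PREPL and TBX18) each single drug had raised the gene, and the combination minus givinostat difference did not pass the test. CAV1, the scaffold protein of caveolae, averaged 12.76 ± 0.05 with the combination, 12.59 ± 0.11 with givinostat, 12.04 ± 0.04 with sorafenib and 11.01 ± 0.16 in control (SD, n = 3 each). No array of 1 group overlapped with another group. Its changes against control were 1.75 with both drugs, 1.58 with givinostat and 1.03 with sorafenib, all past the test. The sum is 2.61 and the departure was -0.86 ± 0.14 (95% interval -1.16 to -0.55; adjusted p = 0.106). A second CAV1 probe gave -1.03.

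TNFRSF21, death receptor 6, measured 9.44, 9.55 and 9.71 with the combination, 9.33, 9.30 and 9.43 with givinostat, 8.57, 8.55 and 8.46 with sorafenib, and 7.09, 7.58 and 7.2 in control. It rose by 2.27 with both drugs, by 2.06 with givinostat and by 1.23 with sorafenib, against a sum of 3.29 (departure -1.02 ± 0.17, 95% interval -1.40 to -0.64, adjusted p = 0.106). Without control B it passed the test (adjusted p = 0.0416). ITGB7, the integrin subunit that pairs with alpha 4 or alpha E in lymphocyte homing to the gut, rose by 1.39, 1.53 and 0.54 in the same order, with a departure of -0.69 ± 0.12. PLEKHB1 averaged 8.87, 9.01, 9.10 and 8.30 with the combination, givinostat, sorafenib and in control. All 3 treated groups lay above control, with sorafenib the highest, and the departure was -0.93 ± 0.16. PREPL had a departure of -0.73 on the probe used and 0.00 on its other probe.

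ERICH3 and RUNX2 rose with givinostat and lay lower with both drugs than with givinostat alone. ERICH3 was above background on the 3 combination and the 3 givinostat arrays and on 0 arrays of sorafenib or control. It was at least 2.06-fold higher than control with both drugs and at least 4.21-fold higher with givinostat, and the combination minus givinostat difference was -1.03 (adjusted p = 0.00966). RUNX2, a runt-domain transcription factor known from bone formation, rose by 0.44 with both drugs and by 0.96 with givinostat, and differed by 0.06 from control with sorafenib (adjusted p = 0.714). Its departure was -0.58 ± 0.11. TBX18, a T-box transcription factor gene, had a departure of -1.30 ± 0.24. It was above background on 0 of 3 combination, 2 of 3 givinostat, 3 of 3 sorafenib and 0 of 3 control arrays. TBX18 thus entered the test only through its sorafenib arrays. TEX15, known for its role in germ cells, departed by -0.98, FAM20C, a kinase of the secretory pathway, by -0.88 (-0.16 on its other probe), and PACS1 by -0.77. Without background correction the departure shrank by over 1.5 times for TNFRSF21 (-0.52), TEX15 (-0.44), TBX18 (-0.55) and ERICH3 (-0.64).

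Among the 11 further genes named above the sum (adjusted p 0.106 to 0.149), SEPTIN4 and TLE2 were raised by givinostat and ACSL1 rose with the combination. TLE2, a Groucho-family co-repressor, measured 8.44, 8.44 and 8.33 with the combination, 8.52, 8.47 and 8.38 with givinostat, 6.97, 6.87 and 6.81 with sorafenib, and 7.67, 7.62 and 7.74 in control. Sorafenib lowered it by itself (change -0.80, adjusted p = 0.00062), and the combination minus givinostat difference was -0.05 (adjusted p = 0.806). The departure was 0.74 ± 0.12 (95% interval 0.48 to 1.00; adjusted p = 0.106). SEPTIN4, a septin whose isoform ARTS is known to promote apoptosis, measured 7.84, 7.82 and 7.83 with the combination, 7.07, 7.0 and 6.63 with givinostat, 5.51, 5.68 and 5.31 with sorafenib, and 5.61, 5.63 and 5.50 in control. It was not above background on any sorafenib or control array. Its level was at least 3.02-fold above control with both drugs and at least 1.58-fold above control with givinostat, and its departure was 1.01 ± 0.18 (95% interval 0.63 to 1.39).

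ACSL1, which activates long-chain fatty acids, averaged 11.68 ± 0.13 with the combination, 11.04 ± 0.07 with givinostat, 11.23 ± 0.09 with sorafenib and 11.34 ± 0.06 in control (SD, n = 3 each). It rose by 0.34 with both drugs (adjusted p = 0.0124) and fell by 0.30 with givinostat (adjusted p = 0.0246), with a departure of 0.75 ± 0.13. ATXN7L1 was above background on the 3 combination arrays and on 0 arrays of any other group. It thus entered the test only through the group where it was high. It was at least 1.70-fold above control with both drugs, and its departure of 1.30 ± 0.25 was the largest of the 12 above the sum. In 6 others both single-drug changes lay below 0 and the combination lay nearer to control than their sum. These were MRPL16, a mitochondrial ribosomal protein (departure 0.77), RRN3, an initiation factor of RNA polymerase I (0.83), H2BC14, a histone H2B gene (1.07), ZMIZ2, a PIAS-like co-activator (0.78), CYTIP, a cytohesin-binding protein of lymphocytes (0.77), and FGR, a SRC-family kinase (0.96). The other probes gave -0.04 for FGR, -0.32 ± 0.33 for CYTIP and 0.11 for ZMIZ2. With 1 array left out the FGR departure was between 0.01 and 1.09. The probe of highest mean was chosen anew in each such fit, so that range can mix both FGR probes. CRCP departed by 0.64. Without background correction the departure shrank by over 1.5 times for TLE2 (0.33), SEPTIN4 (0.48), ATXN7L1 (0.53), H2BC14 (0.46) and FGR (0.35).

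**Figure D3:**
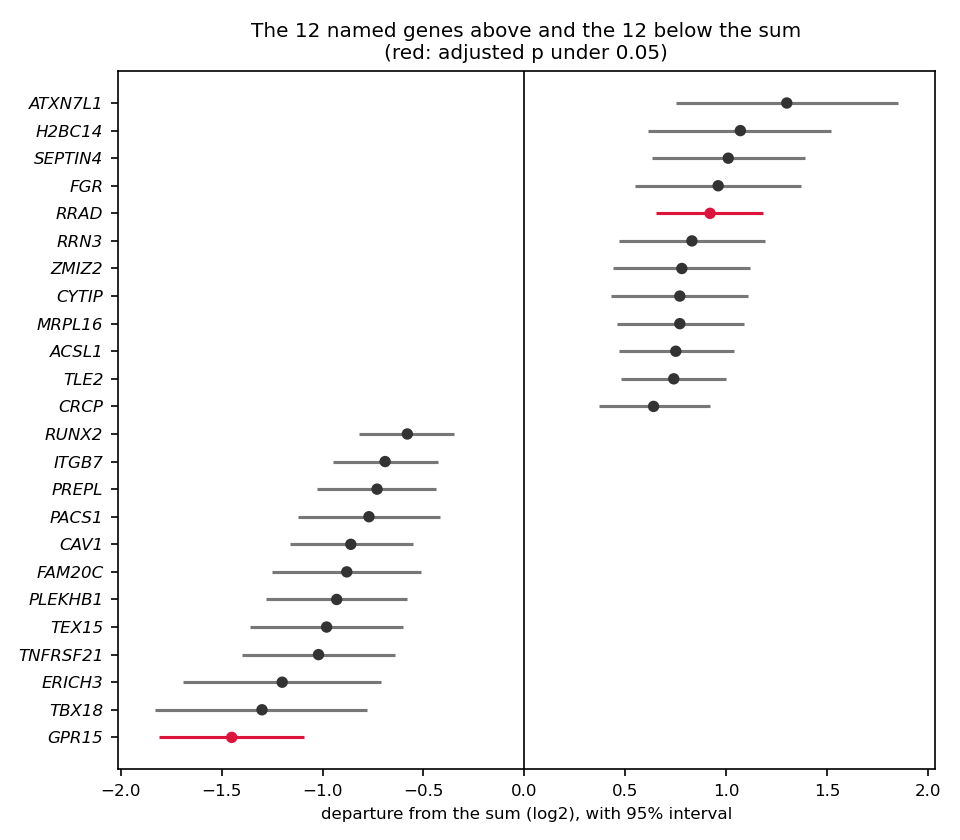
Departure from the sum (x axis, log2) with its 95% interval for the 12 genes named above and the 12 named below the sum (y axis). RRAD at 0.92 and GPR15 at -1.45, in red, had an adjusted p under 0.05. The other 22 had adjusted p from 0.106 to 0.149, and their intervals exclude 0 because they were picked for small p.

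Less change than the sum was more common than more change among the genes with small p. Over all 10525 genes, 6389 had a combination change smaller in size than the sum and 4136 a larger one (60.7% smaller). Among the 1149 genes with an unadjusted p under 0.05 it was 863 (75.1%), and among the 71 with an adjusted p under 0.2 it was 58 (81.7%). The sum carries the errors of 3 groups and the combination change those of 2. The sum is also the combination change minus the departure. Picking genes by a small p of the departure therefore favours a sum larger in size than the combination change. These shares are descriptions and are not set against an even split. For the 4353 genes changed by the combination, a set whose choice does not share its error with the departure in this balanced design, 2265 changed less and 2088 more than the sum (52%). Of the 2200 that were higher with the combination 1220 changed less, and of the 2153 that were lower 1045 did. The median change of the 2200 was 0.60 against a median sum of 0.65. For the 2153 it was -0.55 against -0.56.

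Genes that passed the test with each drug alone mostly changed less than the sum. Of 159 genes higher with each single drug, 152 rose less with both drugs than the sum, with a median combination change of 1.01 and a median sum of 1.39. Of 67 genes lower with each, 64 fell less than the sum, with medians of -0.69 and -1.09. The 2 single-drug comparisons share the control arrays, and those arrays also enter the departure. The choice of genes and the departure are thus not independent, and these counts are descriptions only. In the 68 genes that the 2 drugs changed in opposite directions, 19 changed less and 49 more than the sum. Opposite changes cancel in the sum, whose median size was 0.22, against 0.35 for the combination change. That cancelling by itself favours more change than the sum.

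The 35 gene lists, 937 genes in all, held no member called for its departure by limma. Of the 749 list genes tested, each counted once, 86 (11.5%) had an unadjusted p under 0.05, 51 above and 35 below the sum. Members are therefore described by values, with counts at an unadjusted p under 0.05 read against 5.17% above and 5.75% below over all genes, or 12.7% and 0.912% after median scaling. Of 22 immediate early genes tested, 3 lay above and 2 below the sum at that level, with a median 0.03 above that of all genes under both scalings. The 2 below were EGR1 and FOS. MAFF, a small MAF transcription factor, lay above (0.93 ± 0.26, adjusted p = 0.275). Of 10 ERK feedback and ETS genes 1 lay above and 0 below.

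Among genes of the integrated stress response, sorafenib alone raised 12 of 29 tested members, against 2.99% of all genes, and lowered 0. The combination raised 6 relative to givinostat, against 0.846% of all genes, and lowered 0. The median change was 0.20 with both drugs, -0.13 with givinostat and 0.42 with sorafenib, against a median sum of 0.31. ASNS, asparagine synthetase, measured 14.32, 14.33 and 14.40 with the combination, 13.62, 13.73 and 13.65 with givinostat, 14.41, 14.32 and 14.17 with sorafenib, and 13.43, 13.19 and 13.34 in control. The combination and sorafenib arrays overlapped and lay above the others. ASNS rose by 1.03, 0.34 and 0.98 in the 3 treated groups, and its departure was -0.29 ± 0.13 (95% interval -0.58 to 0.00; adjusted p = 0.456). A second ASNS probe gave 0.25 ± 0.23, so the sign of this small departure is unsettled. PSAT1, of serine synthesis, averaged 12.37, 11.61, 12.90 and 11.80 in the combination, givinostat, sorafenib and control groups (departure -0.34 ± 0.12, adjusted p = 0.331). CEBPG, a dimer partner of ATF4, departed by -0.30. In the list 0 members lay above and 3 below the sum at an unadjusted p under 0.05, and 0 and 0 after median scaling. Its median departure was -0.09 relative to all genes, and -0.12 after median scaling. Among 19 aminoacyl-tRNA synthetases 2 lay above and 0 below, MARS1 at 0.49 ± 0.16 among them.

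Histone genes lay more above than below the sum. Of 30 tested, 4 lay above and 0 below at an unadjusted p under 0.05, and 7 and 0 after median scaling, with a median 0.15 above that of all genes under both scalings. Sorafenib alone lowered 10 of the 30 (1.6% of all genes), and the combination lowered 7 relative to givinostat (0.494% of all genes). The linker histone gene H1-2 ran from 10.31 to 10.49 with the combination, 10.85 to 11.14 with givinostat, 9.17 to 9.65 with sorafenib and 10.62 to 10.71 in control. It fell by 1.30 with sorafenib (adjusted p = 0.00041) and the combination minus givinostat difference was -0.61 (adjusted p = 0.0355), a departure of 0.69 ± 0.18 (adjusted p = 0.235). H2AJ, a histone H2A variant gene, departed by 0.67 ± 0.18 (adjusted p = 0.267). Many histone genes are near-identical in sequence, so a probe may read more than 1 of them.

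Growth and division genes had median changes near their median sums. Of 34 MYC and ribosome biogenesis genes, the combination lowered 30 and givinostat 24, where the shares of all genes were 20.5% and 15.7%, with a median change of -0.67 with both drugs against a sum of -0.78. PA2G4, a growth-related nucleolar protein, lay above the sum at 0.30 and RRP9, of small nucleolar particles, below it at -0.69. Of 40 genes of G1/S and DNA replication the combination lowered 33 and givinostat 32, with medians of -0.67 for the combination and -0.65 for the sum, and 1 lay above and 0 below at an unadjusted p under 0.05. RRM2, the ribonucleotide reductase subunit that supplies DNA synthesis, changed by -1.59 with both drugs, -0.79 with givinostat and -0.68 with sorafenib, all past the test. Its departure was -0.12 ± 0.21 (95% interval -0.57 to 0.32) and 0.31 on its other probe. Under median scaling it was 0.08, or -0.11 relative to all genes. MKI67, a proliferation marker, departed by -0.16 ± 0.27 (0.07 under median scaling, or -0.12 relative to all genes). Of 40 genes of G2/M and mitosis 3 lay above and 0 below. CDKN1A, the kinase inhibitor p21, rose by 1.64 with both drugs and by 1.91 with givinostat (adjusted p = 2.57e-06 and 9.7e-07 in that order). Its departure was -0.04 ± 0.18 (95% interval -0.44 to 0.36). Under median scaling it was 0.14, or -0.05 relative to all genes. The 27 proteasome subunits held 0 members above and 0 below, while the combination lowered 26 of them (20.5% of all genes).

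Heat shock genes had 4 of 20 members above the sum and 1 below at an unadjusted p under 0.05. HSPH1 and HSPA4, chaperones of the HSP110 family, lay above at 0.39 ± 0.12 and 0.56 ± 0.18, and HSPA1L lay below at -0.55 ± 0.15 (adjusted p = 0.305, 0.311 and 0.243 in that order). The other HSPA4 probe gave 0.04. Metallothioneins, which bind zinc and copper, ran the other way. Of 8 tested genes of that list 0 lay above and 3 below, with a median of -0.24 relative to all genes under both scalings, although after median scaling 0 members lay below at that level. The 3 were MT2A (-0.47 ± 0.15), MT1F (-0.33 ± 0.12) and MTF1, the zinc-sensing factor of these genes (-0.57 ± 0.20). The list's median change was 0.60 with both drugs against a sum of 0.83. P4HA2, a collagen prolyl hydroxylase in the hypoxia list, rose by 1.53, 1.26 and 0.89 in the combination, givinostat and sorafenib groups, a departure of -0.62 ± 0.14 (adjusted p = 0.174; -0.23 and -0.10 on its other probes).

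Immune genes went both ways. Of 41 interferon response genes 5 lay above and 6 below at an unadjusted p under 0.05, and 6 and 0 after median scaling, where 12.7% of all genes lay above. CXCL10, a chemokine that attracts T cells, averaged 12.27 ± 0.09 with the combination, 12.46 ± 0.09 with givinostat, 9.72 ± 0.19 with sorafenib and 10.60 ± 0.16 in control (SD, n = 3 each). Sorafenib lowered it alone (-0.88, adjusted p = 0.00238), and the combination minus givinostat difference was -0.20 (adjusted p = 0.418). Its departure of 0.68 ± 0.17 (adjusted p = 0.21) turned sign on the linear intensity scale. IFIT1, an antiviral protein, lay above at 0.61 ± 0.20, and EPSTI1 below at -0.35 ± 0.11. IFIT1 was above background on 0 of 3 sorafenib arrays, and its departure was 0.25 without background correction. Of 34 NF-kappaB targets 6 lay above and 0 below, with a median 0.12 above that of all genes under both scalings. NFKBIA, the inhibitor that holds NF-kappaB in the cytoplasm, changed by -1.09 with both drugs, -1.74 with givinostat and 0.15 with sorafenib, and its departure was 0.50 ± 0.19 (adjusted p = 0.376). TNFAIP3, the feedback protein A20, departed by 0.39 ± 0.13. Of 30 JAK-STAT targets 0 lay above and 1 below, PIM1 at -0.45 ± 0.13. TNFRSF8, which encodes CD30, changed by -1.41 with both drugs and -1.15 with givinostat, and its departure was 0.11 ± 0.31 (95% interval -0.57 to 0.79).

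Pro-apoptotic genes had 2 of 24 members above and 4 below the sum at an unadjusted p under 0.05. After median scaling the counts were 6 above and 1 below, so the list had no settled direction. Its median departure was -0.02 relative to all genes, and 0 after median scaling. TNFSF10, the death ligand TRAIL, rose by 1.01 with both drugs and by 1.01 with givinostat, and by 0.52 with sorafenib, a departure of -0.52 ± 0.19 (adjusted p = 0.354). CASP2 (-0.40, with -0.09 and 0.30 on its other probes) and BOK (-0.85 ± 0.30, adjusted p = 0.342) lay below too. BOK measured 5.6, 6.74 and 6.38 in control, where 2 of 3 arrays were above background. Its departure was -0.34 without background correction. BCL2L11, which encodes BIM, had a departure of 0.56 ± 0.30 (95% interval -0.10 to 1.22) on the probe used, and -1.41 ± 0.48 on its other probe, so its direction is unsettled. Of 27 tested genes in the list of those that histone deacetylase inhibitors widely raise, the combination raised 19 and givinostat 17 (20.9% and 17.6% of all genes), with medians of 0.74 for the combination and 0.76 for the sum. Of these, GSN (gelsolin, which severs actin filaments) and CRIP2 had departures of 0.72 ± 0.22 and 0.63 ± 0.22, and neither was above background on a sorafenib or control array. The keratin-associated protein genes had the most negative medians, -1.74 with both drugs against a sum of -1.99. KRTAP9-8 had these 2 values. It was above background on 0 of 3 combination and 0 of 3 sorafenib arrays, so background limits the size of its changes. The list's median departure was only 0.01, and 3 members changed less and 4 more than the sum. Of 7 tested, KRTAP17-1 lay above at 0.52 ± 0.13. Probes of this family can share sequence. The 57 cytosolic ribosomal protein genes had 3 above and 1 below, with a median of 0.03 relative to all genes and of -0.25 after median scaling. RPL13 departed by 0.69 ± 0.16 (adjusted p = 0.174; 0.03 on its other probe).

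**Figure D4:**
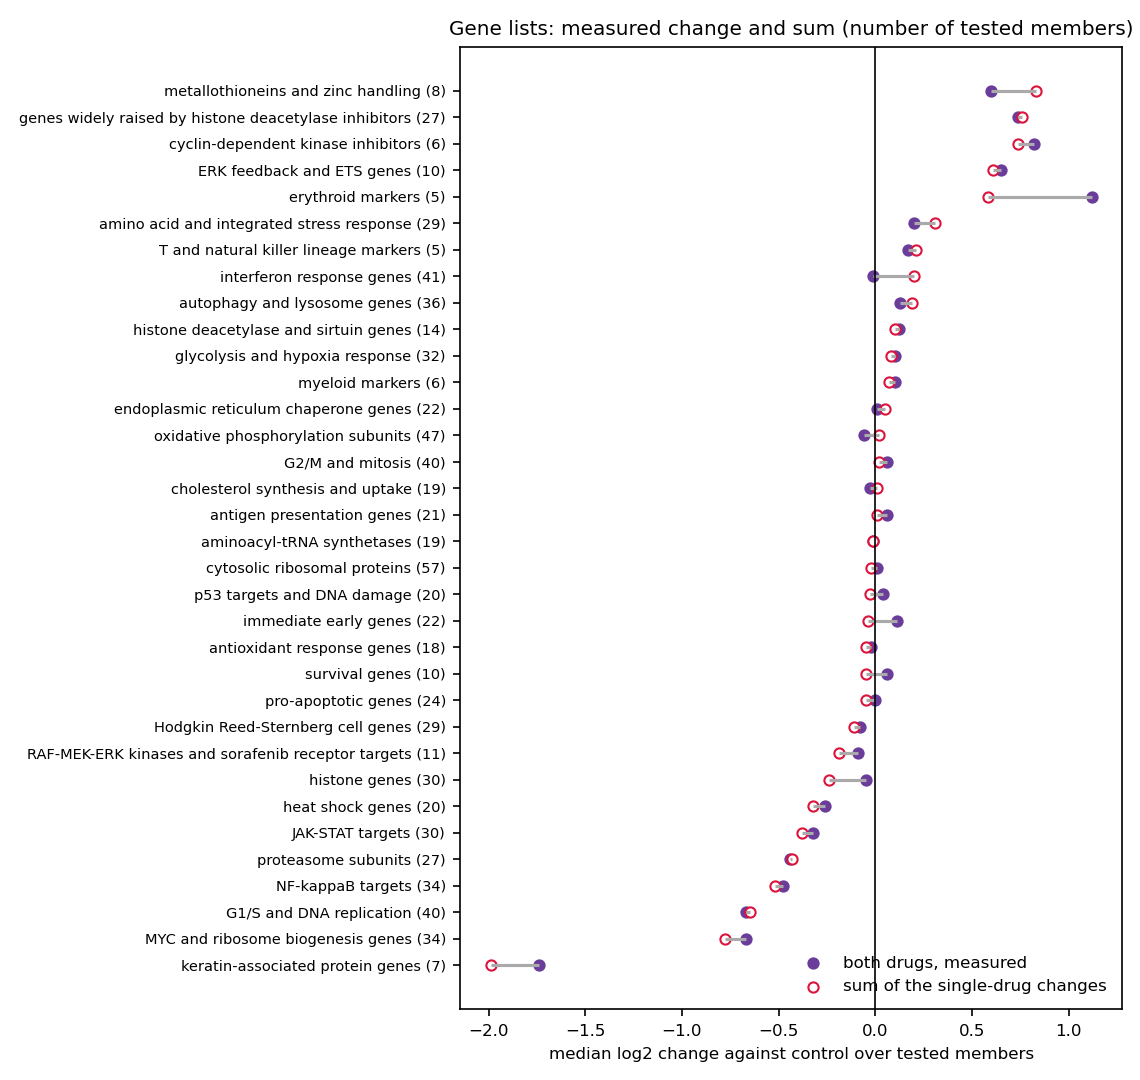
Median log2 change against control over the tested members of each gene list with at least 5 of them (y axis, number of tested members in brackets): measured with both drugs (filled) and as the sum of the single-drug changes (open). The 2 markers lie close together in most lists. They are farther apart in the erythroid marker list (1.12 measured, 0.58 sum), the metallothionein list (0.60 and 0.83) and the keratin-associated list (-1.74 and -1.99). A gap between medians need not equal the median departure, which was 0.38, -0.25 and 0.01 in these lists in that order. Both keratin-associated medians are values of KRTAP9-8, which was not above background on any combination or sorafenib array.

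Lists of genes that mark blood cell lineages were read on the same arrays. Erythroid markers, with 5 of 14 genes tested, had mean log2 levels of 7.58 to 7.82 with the combination, 7.19 to 7.63 with givinostat, 6.23 to 6.48 with sorafenib and 6.28 to 6.50 in control. The combination and givinostat ranges overlapped with each other and lay above the others. On each array 5 to 6 of the 14 genes were above background with the combination, 4 to 5 with givinostat, 3 with sorafenib and 2 to 3 in control. The embryonic globin gene HBE1 lay above the sum at 0.82 ± 0.30 (adjusted p = 0.362), and at 0.33 without background correction. It was above background on 0 of 3 sorafenib and 2 of 3 control arrays. B lineage markers, with 3 of 13 genes tested, had mean levels of 7.29 to 7.56 with the combination, 7.23 to 7.70 with givinostat, 8.07 to 8.31 with sorafenib and 8.10 to 8.57 in control. Of the 3 genes 2 lay above and 1 below the sum. IGLL1, a surrogate light chain gene, changed by -3.09 with the combination and -3.01 with givinostat, and departed by 0.65 ± 0.24 (adjusted p = 0.357). Of 6 tested myeloid markers 3 lay above and 3 below the sum, with a median departure of -0.05. CD68 (0.61 ± 0.16, with 0.14 on its other probe) and CSF1R (0.68 ± 0.25) were those at an unadjusted p under 0.05. The list's mean level ran between 9.08 and 9.38 over the treated and control arrays. T and natural killer lineage markers, with 5 of 17 genes tested, ran between 10.93 and 11.27 on the 12 arrays. Among them, CD2 was high on every array, from 13.46 (control C) to 14.08 (givinostat B). The labels name 1 cell line, so these lists are read as genes of that line. The presence of other cells was not tested.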

How the data were processed

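Biotin-labelled RNA was read on bead arrays with BeadStudio, per the submitters' processing notes, which give no version. The deposited intensity table holds bead averages of 48803 probes (69.7 to 72773), not normalized, and beside each a fraction from 0 to 1 that the file headers call a detection p-value. The deposited fraction rose with intensity (lowest Spearman correlation 0.992), so detection p was taken as 1 minus it. The authors' processed intensities, quantile normalized as their values show, served as an alternative on the log2 scale.

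Intensities were background-corrected (limma 3.58.1 in R 4.3.3, normal-exponential method using detection p, offset 16), quantile normalized and log2-transformed. Of the probes, 28098 had 1 symbol in the platform annotation, 13 several and 20692 none. A probe entered when all 3 arrays of some group had detection p under 0.05 (16927 probes). Of these 2888 had no single symbol and were left out, and the probe with the highest mean stood for a gene (10525 genes, of which 2761 had several detected probes). A limma model with 4 group means took in the 12 arrays (8 residual, 4.04 prior degrees of freedom). Tests were moderated and two-sided, and p-values were adjusted by Benjamini-Hochberg over the 10525 genes, with calls at 0.05. The procedure was tested on simulated data. For a gene not above background in a group, the fold is against the background limit, written "at least".

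Named were the 12 largest departures each way among called genes, filled by the next smallest p and then given by value only, up to 4 called members per list, and 9 fixed genes (FOS, EGR1, JUN, ASNS, CDKN1A, BCL2L11, TNFRSF8, RRM2, MKI67). Since lists held no called member, their examples, taken among those with the smallest p, were chosen after their values were seen. The comparison, the lists and the fixed genes were chosen with earlier results of these data known. Alternatives changed normalization, background correction, detection filter, probe choice, array weights, variance model, scale, replicate letter and each single array.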

Additional observations from a re-analysis of the deposited data

Results flagged for a closer look

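The departure is the test of whether sorafenib's change differs between cells with and without givinostat, and it was past the threshold in 2 genes. GPR15 departed by -1.45. With both drugs it was at least 3.44-fold lower than with givinostat alone. Sorafenib's change without givinostat has no measured size, since all sorafenib and control arrays, like the combination arrays, were not above background. RRAD departed by 0.92. Sorafenib's change was 0.17 with givinostat (adjusted p = 0.323, limma) and -0.74 without it, with all 12 arrays above background. In a fit over all 16927 detected probes RRAD had an adjusted p of 0.0582 and GPR15 of 0.0354. RRAD also missed the threshold with median scaling, no detection filter, the mean of probes and the replicate block.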

How the results depend on the processing

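The 2 departures (1 above, 1 below, 1 of at least 2-fold) became 1 (0 above; GPR15) with median scaling, without a detection filter or with the mean of a gene's probes, and 1 (0 below, 0 of at least 2-fold; RRAD) with probes detected on all 12 arrays. They became 8 (4 above, 4 below, 0 of at least 2-fold; RRAD kept) with the authors' processed values and, by the same genes, without background correction. An intensity-dependent prior gave 16 (8 above, 8 below, 2 of at least 2-fold; RRAD kept, GPR15 lost at 0.0679), the linear scale 22 (10 above, 12 below) and, added after seeing the data, levels raised to the background limit 3 (2 below, 2 of at least 2-fold) and a threshold of 0.2 gave 71. Leaving out each array gave 0 to 2 (0 to 1 above, 0 to 2 below, 0 to 2 of at least 2-fold). The replicate block, with the array letter as a term, gave 0 departures, 0 above, 0 below and 0 of at least 2-fold (smallest adjusted p = 0.094; 1208 genes at an unadjusted p under 0.05). Letters were not read as pairs, since the labels do not say what they mark. In deviations from the group mean, the 18 same-letter pairs correlated at -0.059 to 0.255 (median 0.033, 5 over 0.1). The 36 different-letter pairs correlated at -0.238 to 0.119 (median -0.021, 2 over 0.1). Of 12 arrays, 6 correlated best with their own letter. A shared source of same-letter arrays was not tested. Genes changed by sorafenib with givinostat (141) were 358 with array weights, 306 with the processed values or no background correction, 316 with the intensity-dependent prior, 88 with median scaling, 68 without a detection filter and 32 to 225 with an array left out. Without givinostat (483) they were 725 with that prior, 214 without a detection filter and 166 to 407 with an array left out. List members called were 0, but 1 with the processed values and 4 on the linear scale.

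Of 1665 values for 70 named genes, 1580 kept direction and side of the threshold, 33 passed it newly (14 genes), 26 lost it (GPR15 and RRAD) and 26 turned direction (7 genes), none of them past the threshold. Under median scaling JUN was 0.17, CDKN1A 0.14, MKI67 0.07 and RRM2 0.08. Relative to the all-gene median of that scaling they were -0.02, -0.05, -0.12 and -0.11, so none turned relative to all genes. With the mean of probes BCL2L11 was -0.43 and RRM2 0.09. On the linear scale CXCL10 was -22.9, JUN 1510 and RRM2 1900, and with the processed values or no background correction JUN was 0.01. With an array left out JUN ran from -0.12 to 0.08, CDKN1A from -0.17 to 0.04, MKI67 from -0.37 to 0.06, RRM2 from -0.25 to 0.01 and TNFRSF8 from -0.06 to 0.33. The causes were not tested. Of the genes tested 368 were not above background in some group, which limits their departures.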

Other observations

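Among the 2888 detected probes with no single gene symbol, 1 probe (ILMN_1763999) departed from the sum by 1.17 ± 0.15 in a limma fit over all 16927 detected probes (adjusted p = 0.0354). It is unnamed here. Of these 2888 probes 313 (10.8%) had an unadjusted p under 0.05, against 1417 of 14039 probes with 1 symbol (10.1%).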
